A study of Mus musculus with 16 samples.

Results

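The livers described here came from old male C57BL/6 mice kept on the standard AIN-93G diet (SD) without metformin, and they give the baseline hepatic transcriptome of the study. All 4 SD mice of the 13 mice in the series were taken, and with them 5 of the 16 arrays, since mouse 1 was measured on 2 arrays that were averaged. Mice were bought at 104 weeks of age, randomised after a month on AIN-93G, and their livers were profiled 17 weeks into the feeding regimen. The remaining 9 mice received 1% metformin in this diet every other week or for 2 consecutive weeks a month and were not used. RNA was taken from pieces of whole frozen liver, so that every cell type of the organ contributed to each value, and per the study's methods the mice were not fasted. The hour of tissue collection is not given in the sources used here.

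The liver is built mostly of hepatocytes, which make the proteins of blood plasma, oxidise and synthesise lipids, dispose of nitrogen as urea and turn cholesterol into bile acids. Sinusoidal endothelial cells line its capillaries, Kupffer cells are its resident macrophages, stellate cells store vitamin A and make matrix, and cholangiocytes line the bile ducts. Several hepatocyte programs are set by time of day, by feeding and by sex, the last through the pattern in which growth hormone is released.

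Each array held 25697 probes and returned, for every probe, a fluorescence signal and a detection p-value, the chance that beads without a target sequence would be as bright. The median signal of an array lay between 145.3 and 184.9, the brightest probe of an array between 32767 and 38915, and 11698 to 12953 probes of an array had a detection p-value under 0.05. The repeat arrays of mouse 1 correlated at r = 0.9927 across detected probes, and pairs of mice at 0.967 to 0.981 (r across probes, which are not independent). Signals are compared between mice on a log2 scale after each array was brought to the same mean and standard deviation, and are called scaled signals below, while a signal without that word is the deposited value, averaged over both arrays for mouse 1. Brightness also depends on the sequence of a probe, so that an order of probes is an order of signals and not of RNA amounts.

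A large part of the array was silent in these livers. Of the 25697 probes, 10605 (41.3%) were detected on all 5 arrays, 11400 (44.4%) on no array and 3692 (14.4%) on 1 to 4 arrays. Read by gene, 7485 of 16593 genes (45.1%) had a probe detected on all 5 arrays, 2364 had one on some arrays and 6744 (40.6%) were at background. Detected probes had a median signal of 502, while probes detected on no array had a median of 137.3 and none had a mean above 164.6.

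**Figure D1:**
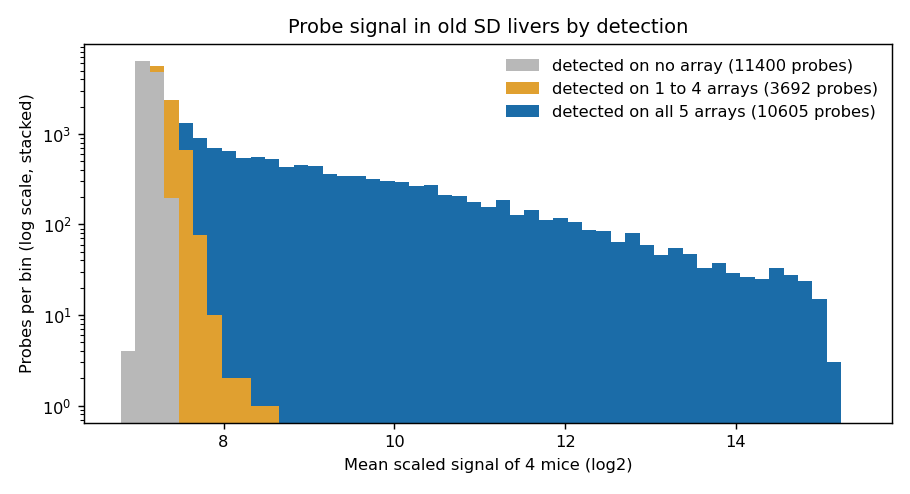
Number of probes (vertical axis, log scale, stacked) by mean scaled signal of the 4 SD mice (horizontal axis, log2), coloured by detection. The 11400 probes detected on no array form a narrow peak at the left, and the 10605 probes detected on all 5 arrays reach from its edge to the top of the scale.

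A probe at background did not show that a transcript was absent. Probes of several genes with well known liver expression were detected on no array, among them those of Fgb (fibrinogen beta chain), Tat (tyrosine aminotransferase), Fabp1 (liver fatty acid-binding protein), Cpt1a (mitochondrial carnitine palmitoyltransferase) and Nr0b2 (the bile acid-responsive repressor SHP). The probe of Alb, which encodes albumin, had signals of 173, 141, 171 and 155 in mice 1 to 4 and was detected on 1 array. Among detected genes, 1071 of 7485 (14.3%) had another probe that was detected on no array.

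Markers of hepatocytes, Kupffer cells, sinusoidal endothelial cells and stellate cells were mostly detected, and those of cholangiocytes and of other tissues mostly were not. Of the marker genes with a probe, 11 of 14 hepatocyte genes, 12 of 13 Kupffer cell and macrophage genes, 14 of 15 sinusoidal endothelial genes and 12 of 15 stellate cell genes were detected on all arrays. The hepatocyte genes not detected on all arrays were Alb, Tat and Fgb. Among the members detected on all arrays, hepatocyte genes had a median signal of 25440. It was 2025 for Kupffer cell and macrophage genes, 744 for sinusoidal endothelial genes and 355 for stellate cell genes. These values leave out the undetected members and also depend on the probes. Detected on all arrays were 2 of 7 cholangiocyte genes, 6 of 13 T and NK cell genes and 4 of 8 B and plasma cell genes. Over all genes of the array the share was 45.1%, near that of the T and NK cell and the B and plasma cell lists.

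No marker gene of skeletal and heart muscle (0 of 13), testis and germ cells (0 of 11) or adipocytes (0 of 7) was detected on all 5 arrays. The corresponding counts were 1 of 11 for neurons, 1 of 8 for kidney, 1 of 7 for intestinal epithelium, 2 of 8 for lens and retina, 2 of 9 for keratinocytes and 2 of 10 for exocrine pancreas. The summed signals of the muscle and of the adipocyte lists were highest in mouse 3. They were 2016, 1707, 2330 and 1770 for muscle and 1098, 932, 1272 and 919 for adipocytes in mice 1 to 4. These sums include members at background. Among members detected on some arrays, Acta1, skeletal muscle actin, had signals of 149, 115, 282 and 136. Cidec, a lipid droplet protein on the adipocyte list, had signals of 170, 169, 315 and 143. Of 6 genes that mark fetal liver, Afp, Dlk1, Igf2bp1 and Igf2bp3 were at background, Gpc3 was detected on some arrays, and Igf2 was detected on all with a mean signal of 190.3.

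**Figure D2:**
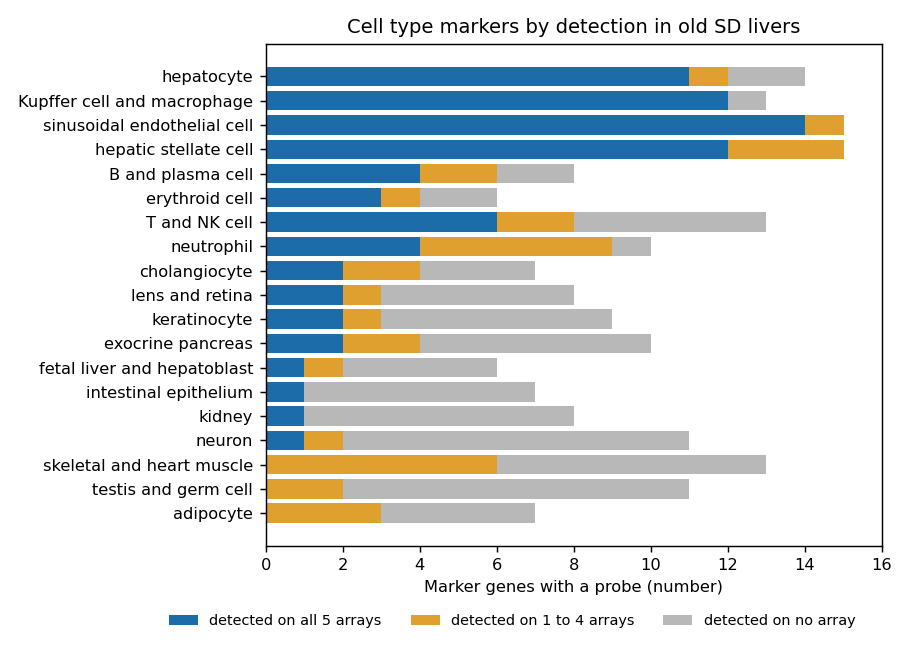
Number of marker genes with a probe on the array (horizontal axis) for each cell type or tissue (vertical axis), divided by detection in the SD livers. Hepatocyte, Kupffer, endothelial and stellate lists are mostly detected on all 5 arrays, and muscle, testis and adipocyte lists hold no gene detected on all 5.

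Plasma protein genes were frequent among the brightest. Of the 50 brightest genes, 15 were plasma proteins secreted by liver, 6 apolipoproteins, 5 ribosomal proteins and 2 members of the respiratory complexes, lists that may share members. The 20 genes of highest mean scaled signal were Apoc3, Dbi, Gpx1, Atp5g3, Hp, Rplp1, Mat1a, Rpl41, Azgp1, Scd1, Hpx, Fth1, Orm1, Serpina1c, Gnmt, B2m, Trf, Ahsg, Apoe and Itih4, with mean signals between 29100 and 34050. Apoc3, an apolipoprotein that slows the clearance of triglyceride-rich particles, had signals of 33400, 32710, 38090 and 32000 in mice 1 to 4. Dbi, the acyl-CoA-binding protein, had signals of 33190, 30290, 33710 and 37460, and Gpx1, a glutathione peroxidase, had 33640, 32900, 29870 and 36100. These signals lay near the top of the scale, where signals compress. In scaled signal the highest and lowest mouse differed 1.35-fold for Apoc3, 1.60-fold for Dbi and 1.63-fold for Gpx1. Scaling changed the order of mice: Apoc3 was highest in mouse 4 and lowest in mouse 1 when scaled, but its signal was lowest in mouse 4. The SDs between mice were 0.18, 0.30 and 0.32 in scaled signal. They were 0.08, 0.08 and 0.14 after quantile normalization, which gives every array the same distribution.

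Other members of the 20 serve blood transport of iron and heme: Trf (transferrin), Hpx (hemopexin, which binds heme) and Hp (haptoglobin, which binds hemoglobin), beside the ferritin heavy chain Fth1, which stores iron in the cell. Mat1a makes S-adenosylmethionine and Gnmt consumes it, and Gnmt had signals of 25320, 31840, 32740 and 31050. Scd1, the stearoyl-CoA desaturase, had signals of 30390, 27870, 32140 and 31400. The 50 brightest genes lay between 23660 and 34050 and held 7.41% of the summed signal. Serpina1c has near-identical relatives (Serpina1a, Serpina1b, Serpina1d and Serpina1e) that its probe may also bind.

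Differences between mice among the 50 brightest genes depended on the scaling. Mouse 4 had the highest scaled signal in 44 of the 50 and mouse 1 the lowest in 40, with a median SD between mice of 0.23 on the log2 scale. After quantile normalization, which gives every array the same distribution, the median SD was 0.09 and the highest value fell on mice 1 to 4 in 6, 16, 11 and 17 genes. A test of whether the mice differed (limma's moderated F, adjusted p under 0.05) called 13 of the 50, against 35.5% of all detected probes, and 0 of the 50 (0 also at an unadjusted p under 0.05) when arrays were centred on their medians only, against 4.67% of all detected probes.

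The spread between untreated mice was small for most genes. Over the 10605 detected probes the median SD between the 4 mice was 0.18 on the log2 scale, against 0.09 between the 2 arrays of mouse 1. An SD of 4 values and an SD of 2 values scatter differently, so these medians are given side by side only. The SD was under 0.1 for 1709 probes, over 0.5 for 449 (4.23%) and over 1 for 36. The highest and lowest mouse differed by more than 1 log2 unit for 615 probes and by more than 3 for 10.

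Limma's F test found differences between mice for 35.5% of detected probes (3767 of 10605, Benjamini-Hochberg adjusted p under 0.05). It compared the mice with the spread of the single repeated pair of arrays, moderated over all probes, so it describes these 4 livers and no condition. With arrays centred on their medians the repeat arrays lay further apart (median SD 0.17 in place of 0.09) and the share was 4.67% (495 of 10605), so counts for gene groups are given below under both scalings. Where that second count is 0, the number at an unadjusted p under 0.05 stands beside it. Read by gene, 2746 of the 7485 detected genes were called, and 359 with median centring. Mice 1 to 4 had the highest scaled signal for 2426, 1300, 2040 and 1719 of the 7485 genes. They had the lowest for 1417, 1501, 2032 and 2535.

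**Figure D3:**
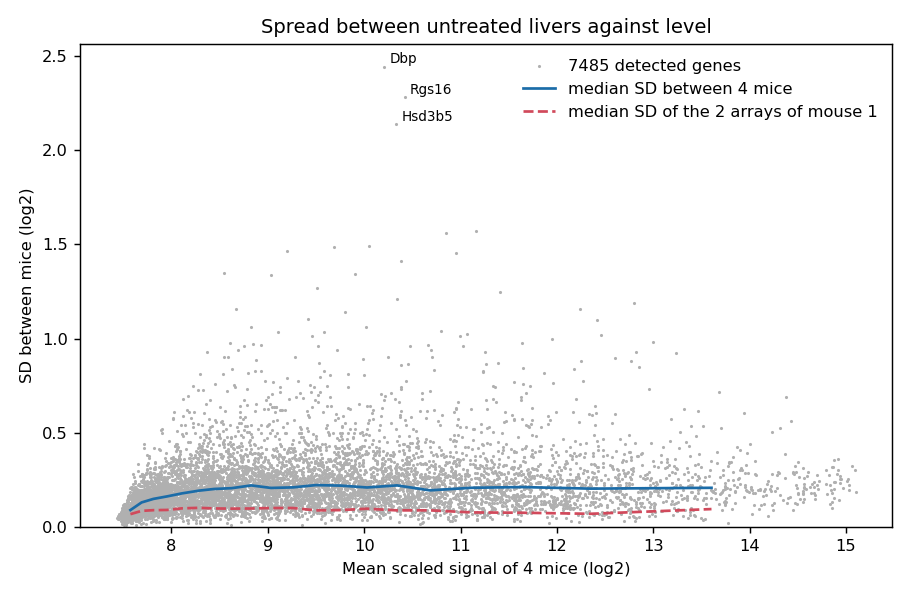
SD between the 4 SD mice (vertical axis, log2) against mean scaled signal (horizontal axis, log2) for the 7485 detected genes, 1 point a gene. The solid line is the median SD between mice and the dashed line the median SD of the repeat arrays of mouse 1, and Dbp, Rgs16 and Hsd3b5 lie above an SD of 2.

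A small set of genes varied far more than the rest. The 20 genes of highest SD were Dbp, Rgs16, Hsd3b5, Cyp4a12a, Cyp2b9, Cyp4a12b, Cyp2b23, Pf4, Upp2, Thrsp, H2-M2, Cyp4a31, Chrna4, Cxcl13, Egr1, Mfsd2a, Cyp4a14, Elovl3, Wfdc17 and Hsd17b6, with SDs of 1.14 to 2.44 and 5.16-fold to 49.7-fold differences in scaled signal between the highest and the lowest mouse. They were chosen by this SD, so that their passing the F test under both scalings (20 of 20) is a description. Probes of the Cyp2b and Cyp4a families may bind more than 1 member, and values of single members are uncertain.

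Dbp, an output transcription factor of the circadian clock, had the highest SD of all detected genes. Its signals were 286, 942, 582 and 10650 in mice 1 to 4, or 8.02, 10.06, 9.11 and 13.66 as scaled log2 signal. Mouse 4 stood above the other 3, and without it the SD was 1.02 in place of 2.44. Rgs16, which ends signalling by G protein-coupled receptors, had signals of 2529, 303, 469 and 8537, with mouse 4 highest and mouse 2 lowest, and its SD was 1.47 without mouse 4 and 2.28 with it.

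Hsd3b5, a male-biased steroid reductase of mouse liver, had signals of 304, 2165, 7940 and 478, high in mice 2 and 3 and low in mice 1 and 4. Cyp4a12a, a fatty acid omega-hydroxylase that is higher in males, followed the same order of mice except that all levels were higher (728, 2867, 9058 and 1332). Cyp2b9, a cytochrome P450 more abundant in females, had signals of 5213, 587, 837 and 4061. Here mice 1 and 4 were high and mice 2 and 3 low.

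Lipid genes of the set had patterns of their own. Thrsp, a regulator of fatty acid synthesis, had signals of 650, 1838, 634 and 3615. Cyp4a14, a fatty acid hydroxylase induced by PPAR alpha, had signals of 17050, 2103, 12900 and 5077, with mouse 2 lowest, and without that mouse its SD was 0.68 in place of 1.19. Elovl3, a fatty acid elongase, had signals of 207, 586, 1031 and 204, high in mice 2 and 3 as for Hsd3b5.

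Blood and immune genes made up another portion. Pf4, a chemokine stored in platelets, had signals of 1432 and 1362 in mice 1 and 2 and of 244 and 228 in mice 3 and 4. Cxcl13, which attracts B cells, had signals of 2910, 474, 363 and 519, and its SD was 0.41 without mouse 1 against 1.27 with it. H2-M2, a nonclassical class I histocompatibility gene, had signals of 1622, 161, 238 and 289, and its SD was 0.42 without mouse 1 against 1.35 with it. Mouse 1 was also highest for Wfdc17, a secreted protein of macrophages, with signals of 10800, 7943, 1950 and 2883.

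Egr1, an immediate early transcription factor, had signals of 3760, 871, 2289 and 6495. Upp2, a liver uridine phosphorylase, had signals of 597, 1844, 2350 and 5224, highest in mouse 4 and lowest in mouse 1, and its SD was 0.89 without mouse 1 against 1.46 with all. Chrna4, a nicotinic receptor subunit, had signals of 385, 516, 213 and 1542, and its SD was 0.76 without mouse 4 against 1.34. Hsd17b6, a steroid dehydrogenase, had signals of 3024, 384, 660 and 757, and its SD was 0.50 without mouse 1 against 1.14.

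**Figure D4:**
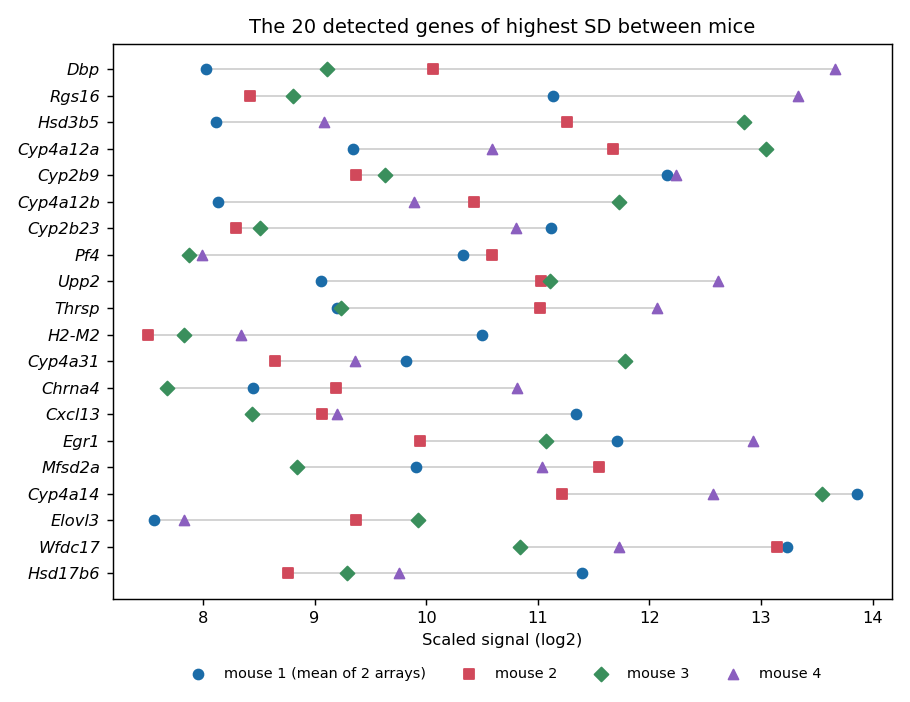
Scaled signal (horizontal axis, log2) of each SD mouse for the 20 detected genes of highest SD (vertical axis, in order of SD). Mouse 4 stands at the right for Dbp and Rgs16, mouse 3 for Hsd3b5 and Cyp4a12a, and mouse 1 for Cxcl13, H2-M2 and Hsd17b6.

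The DNA before the transcription start was read for the brightest and the most variable genes. Windows from 250 bases before to 50 bases after the start (RefSeq, GRCm38.p6) were found for 35 of the 50 brightest, 38 of the 50 most variable, 6150 of the 7485 detected and 5347 of the 6744 background genes, and were searched on both strands. TATAAA, the TATA box, was held by 25.7% of the brightest and 21.1% of the most variable genes. The shares were 9.66% of all detected genes, 20.0% of background genes and 15.7% of all 27025 genes with a window. A gene with several windows was counted once, for a motif in any of them. GGGCGG, the GC box, was held by 34.3% and 31.6% of the bright and variable genes. It was held by 67.9% of detected genes, 37.2% of background genes and 38.2% of all genes with a window. GTTAAT is part of the site bound by the hepatocyte factor HNF1. It was held by 20.0% of the brightest (7 of 35) and 2.63% of the most variable genes (1 of 38). The shares were 6.13% of detected genes, 8.79% of background genes and 8.24% of all genes with a window. The 7 include the near-identical relatives Serpina1b, Serpina1c and Serpina1d, and Apoe through 1 of its windows. CCAAT was held by 60.0% and 57.9%, against 43.8% of detected genes and 41.1% of all genes with a window. CACGTG, the E box of clock factors, was held by 8.57% and 5.26%, against 12.2% of detected genes and 8.09% of all genes with a window. TTATGTAA, the D box that Dbp binds, was held by 1 of 35 and 0 of 38. Its shares were 0.78% of detected genes and 1.11% of all genes with a window. TGACGTCA, the cyclic AMP element, was held by 0 of 35 and 2 of 38, against 3.54% of detected genes and 2.03% of all genes with a window. These shares describe letters and were not tested.

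The last 120 bases before the start are shown for 2 of the brightest 50 and 3 of the most variable 50 genes, chosen because they hold the motifs counted above, which stand in capitals. They lie at chr12:103904951-103905070 (minus strand) for Serpina1c, chr7:140763699-140763818 (plus) for Cyp2e1, an ethanol-oxidising P450 with a mean signal of 27900, chr1:153740233-153740352 (plus) for Rgs16, chr9:121916306-121916425 (minus) for Cyp8b1 and chr17:34287824-34287943 (minus) for H2-Aa, all GRCm38.p6 and read 5′ to 3′ along the gene.
Serpina1c: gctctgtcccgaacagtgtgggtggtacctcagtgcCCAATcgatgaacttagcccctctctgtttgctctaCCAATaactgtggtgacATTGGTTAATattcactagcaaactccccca
Cyp2e1: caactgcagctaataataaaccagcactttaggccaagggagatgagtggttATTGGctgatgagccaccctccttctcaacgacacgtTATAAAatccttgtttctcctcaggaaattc
Rgs16: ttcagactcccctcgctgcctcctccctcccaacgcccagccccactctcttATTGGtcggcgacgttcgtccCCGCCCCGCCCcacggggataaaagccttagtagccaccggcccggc
Cyp8b1: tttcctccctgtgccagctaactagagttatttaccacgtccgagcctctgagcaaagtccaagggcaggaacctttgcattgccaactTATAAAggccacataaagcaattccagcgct
H2-Aa: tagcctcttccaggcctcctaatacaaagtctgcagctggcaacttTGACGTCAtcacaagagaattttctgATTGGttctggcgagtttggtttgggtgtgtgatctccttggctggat
Serpina1c holds 3 CCAAT boxes, of which the last, as ATTGG on this strand, shares its final G with GTTAAT. Cyp2e1 and Cyp8b1 hold TATAAA beginning 31 bases before the start. Rgs16 holds a pair of GC boxes (CCGCCC on this strand) and an ATTGG, and H2-Aa holds TGACGTCA beginning 74 bases before the start with an ATTGG after it.

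Circadian genes varied widely across the mice, with mouse 4 highest or lowest for most of them. Of 22 clock genes with a probe, 14 were detected, and their median SD was 0.67 against 0.19 over all 7485 detected genes. Of the 14, 13 were called (8 with median centring), against 2746 (359) of the 7485. Mouse 4 had the highest scaled signal for 9 of the 14, against 1719 of all 7485 detected genes. The median difference from the mean of the 4 mice was 0.71 in mouse 4 and −0.33 in mouse 1. Without mouse 4 the median SD of the group was 0.27.

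Members of the clock fell into opposite orders. Nr1d1 (REV-ERB alpha, a repressor of Arntl) had scaled signals of 7.97, 8.78, 8.71 and 10.27 in mice 1 to 4, Per1 had 7.95, 8.79, 8.02 and 9.76, Per2 had 9.41, 9.52, 8.96 and 10.42, and Tef, a relative of Dbp, had 9.21, 9.64, 9.46 and 11.02. Mouse 4 was highest for each. Arntl (BMAL1, which activates the Per genes) had 9.59, 8.65, 9.05 and 7.85, and its partner Clock had 10.67, 10.29, 10.43 and 10.02. Nfil3, which opposes Dbp at its sites, had 11.86, 11.47, 11.78 and 10.25. These 3 were highest in mouse 1 and lowest in mouse 4. Rora, an activator of Arntl, had an SD of 0.10 and was not called. The probes of Cry1, Wee1 and Bhlhe41 were at background.

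Genes known to differ between the sexes of mouse liver varied widely among these males. Of 22 male-biased genes with a probe, 16 were detected, with a median SD of 0.72. All 16 were called (6 with median centring), against 2746 (359) of all 7485 detected genes. Mouse 3 was highest for 12 and mouse 1 lowest for 12, against 2040 and 1417 of all 7485 detected genes. The median difference from the mean was −0.62, 0.35, 0.69 and −0.33 in mice 1 to 4. Beside Hsd3b5 and Cyp4a12a, Cyp7b1 (oxysterol 7-alpha-hydroxylase) had scaled signals of 12.22, 12.66, 14.09 and 12.44, Egfr (the epidermal growth factor receptor) had 10.73, 11.85, 12.55 and 11.75, and C6, a complement component, had 10.57, 11.57, 12.05 and 10.84.

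The major urinary proteins, pheromone carriers made by male liver, were bright. All 5 with a probe were detected and called (0 with median centring, 2 unadjusted), and mouse 2 was highest for all 5 (for 3 of 5 after quantile normalization). Of all 7485 detected genes 2746 were called (359 with median centring), and mouse 2 was highest for 1300. Mup20 had scaled signals of 11.86, 13.19, 12.60 and 11.45, and Mup21 had 12.72, 14.39, 14.01 and 13.61. Their sequences are near-identical and single members cannot be told apart with certainty.

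Of 20 female-biased genes with a probe, 10 were detected. Of the 10, 6 were called (5 with median centring), against 2746 (359) of all 7485 detected genes. Mouse 4 was highest for 6 of the 10 and mouse 1 for 3, but for 4 and 5 with median centring. Mouse 2 was lowest for 8, and for 6 after quantile normalization. Acot3, a peroxisomal thioesterase, had scaled signals of 10.43, 8.48, 8.91 and 10.49, with mice 1 and 4 above mice 2 and 3 as for Cyp2b9. Cyp17a1, which makes androgen precursors, had 8.84, 9.06, 10.14 and 10.84, an order that Cyp2b9 did not share. Sult3a1, Sult1e1, Cyp3a41a and Cyp3a44, which are high in female liver, were at background.

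Kupffer cell and antigen presentation genes were highest in mouse 1. All 12 detected Kupffer cell and macrophage genes were called (7 with median centring), against 2746 (359) of all 7485 detected genes. Mouse 1 was highest for 11 of 12, against 2426 of the 7485. The summed signal of the 13 genes with a probe was 73330, 38180, 26940 and 26570 in mice 1 to 4. Vsig4, a complement receptor of Kupffer cells, had scaled signals of 14.10, 13.49, 11.90 and 12.51, Adgre1 (F4/80) had 11.99, 10.71, 9.79 and 10.14, and Timd4 had 9.67, 8.77, 8.09 and 8.11. Clec4f, which is specific to Kupffer cells, was highest in mouse 2 (11.29, 11.52, 10.37 and 10.65). In whole liver, more cells of a type and more RNA per cell cannot be told apart.

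All 7 detected MHC class II genes were called under both scalings, and mouse 1 was highest for all 7. Of all 7485 detected genes 2746 were called (359 with median centring), and mouse 1 was highest for 2426. H2-Aa, whose promoter is shown above, had signals of 5778, 2289, 1025 and 1409, and Cd74, the invariant chain, had signals of 10390, 6546, 3140 and 2414. Their median difference from the mean was 0.90, 0.27, −0.68 and −0.46 in mice 1 to 4, and without mouse 1 the median SD was 0.51 in place of 0.76. The neutrophil genes S100a8 and S100a9 were highest in mouse 1 too, at 11.47, 10.31, 9.37 and 10.37 for S100a8. Csf3r and Elane, which also mark neutrophils, had SDs of 0.11 and 0.05 and were not called. Of 6 detected T and NK cell genes, 5 were called (2 with median centring). Mouse 1 was highest for 5, against 2426 of all 7485 detected genes, with Ccl5 at 9.89, 9.21, 8.91 and 9.67.

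Among single inflammatory genes, Il1b had scaled signals of 10.61, 8.44, 8.99 and 8.38 and Cd207 (langerin) had 11.06, 8.68, 9.01 and 8.91, with mouse 1 above the other 3 for each. Sinusoidal endothelial genes were spread less. Mouse 1 was highest for 7 of 14, against 2426 of all 7485 detected genes, with a median difference from the mean of 0.13 in mouse 1. Their median SD was 0.19, close to that of all detected genes, and 4 of 14 were called (0 with median centring, 0 unadjusted). Stab2, a scavenger receptor of these cells, had 10.12, 9.74, 10.07 and 9.99. Stellate cell genes had a median SD of 0.24, and 6 of 12 were called (0 with median centring, 1 unadjusted), against 2746 of all 7485 detected genes. Mouse 2 was lowest for 8, against 1501 of the 7485, including Reln at 12.09, 11.26, 11.61 and 11.97.

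Interferon-stimulated genes were highest in mouse 2. Of 31 with a probe, 26 were detected, and 22 of 26 were called (7 with median centring), against 2746 (359) of all 7485 detected genes. Mouse 2 was highest for 21 of 26, against 1300 of the 7485. Usp18, which restrains interferon signalling, had scaled signals of 9.51, 11.30, 10.47 and 10.23, Isg15, a ubiquitin-like modifier, had 8.35, 9.51, 9.25 and 8.99, and Irf7 had 8.14, 9.26, 8.68 and 8.40. Without mouse 2 the median SD was 0.27 in place of 0.38. Gbp2, a guanylate-binding protein, followed another order (9.87, 9.62, 9.21 and 9.27).

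Proliferation genes were mostly dim. Of 18 with a probe, 5 were detected on all arrays, 9 on some and 4 on none. Mouse 2 was highest for all 5, against 1300 of all 7485 detected genes. Of the 5, 4 were called (3 with median centring), against 2746 (359) of the 7485. Mcm5, a subunit of the replicative helicase, had scaled signals of 8.37, 8.94, 7.68 and 7.64, and Ccnd1 (cyclin D1) had 10.56, 11.52, 10.13 and 11.01. Cdc20, which drives exit from mitosis, was detected in mice 1 to 3 and not in mouse 4, with signals of 209, 474, 202 and 147. Cdkn2a, a marker of senescence, was at background, and Cdkn1a (p21) had 8.88, 8.69, 8.47 and 7.66.

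Lipid synthesis genes were most often highest in mouse 4. All 18 cholesterol synthesis genes with a probe were detected, and 16 of 18 were called (5 with median centring), against 2746 (359) of all 7485 detected genes. Mouse 4 was highest for 11 and mouse 1 lowest for 15, against 1719 and 1417 of the 7485. Fdps (farnesyl diphosphate synthase) had scaled signals of 11.91, 12.59, 12.03 and 13.87 and Sqle (squalene epoxidase) had 9.71, 9.80, 10.84 and 11.51. Of 20 detected fatty acid synthesis genes, 18 were called (3 with median centring) and mouse 4 was highest for 13. After quantile normalization mouse 4 was highest for 10 of these 20 and 12 of the 18 cholesterol synthesis genes, against 2049 of the 7485. Acly, which makes cytosolic acetyl-CoA, had 12.92, 13.33, 12.57 and 13.90, Srebf1, the transcription factor that drives these genes, had 9.79, 10.99, 9.41 and 10.48, and Elovl6 had 11.16, 11.17, 10.30 and 12.31.

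Genes induced through PPAR alpha, the nuclear receptor for fatty acids, had another order. Of 21 detected, 17 were called (6 with median centring), against 2746 (359) of all 7485 detected genes. Mouse 3 was highest for 13 and mouse 2 lowest for 13, against 2040 and 1501 of all 7485 detected genes. Angptl4, an inhibitor of lipoprotein lipase, had scaled signals of 9.30, 9.43, 11.58 and 9.79, Acot1 had 11.49, 10.46, 11.59 and 10.33, and Ehhadh, a peroxisomal beta-oxidation enzyme, had 10.39, 9.45, 10.20 and 9.52. Genes of fasting and glucocorticoid response varied with no common order (median SD 0.50). Of 22 detected, 17 were called (11 with median centring), against the same 2746 (359) of 7485. Pck1 (gluconeogenic PEPCK) had 8.28, 9.10, 9.32 and 9.12, G6pc (glucose-6-phosphatase) had 12.94, 13.33, 13.29 and 12.36, and Lpin1 had 7.97, 8.50, 8.41 and 9.73.

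Acute phase genes differed one from another. Of 20 detected, 14 were called (4 with median centring), against 2746 (359) of all 7485 detected genes. No mouse was highest for more than 7 of the 20. Lcn2 (lipocalin 2) had scaled signals of 11.14, 12.32, 12.57 and 10.51, and Saa1 (serum amyloid A) had 8.52, 9.85, 8.93 and 7.90, while Hamp (hepcidin, the iron hormone) had 14.31, 14.71, 13.69 and 14.99. Saa2, close in sequence to Saa1, was detected on 4 of 5 arrays with signals of 292, 691, 387 and 135. In bile acid synthesis, Cyp8b1, which adds the 12-alpha hydroxyl group of cholic acid, had 11.34, 11.90, 13.58 and 13.00, and the rate-limiting Cyp7a1 had 11.16, 11.53, 10.93 and 12.07. The canalicular transporters Abcb11 and Abcb4 had SDs of 0.12 and 0.08 and were not called.

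**Figure D5:**
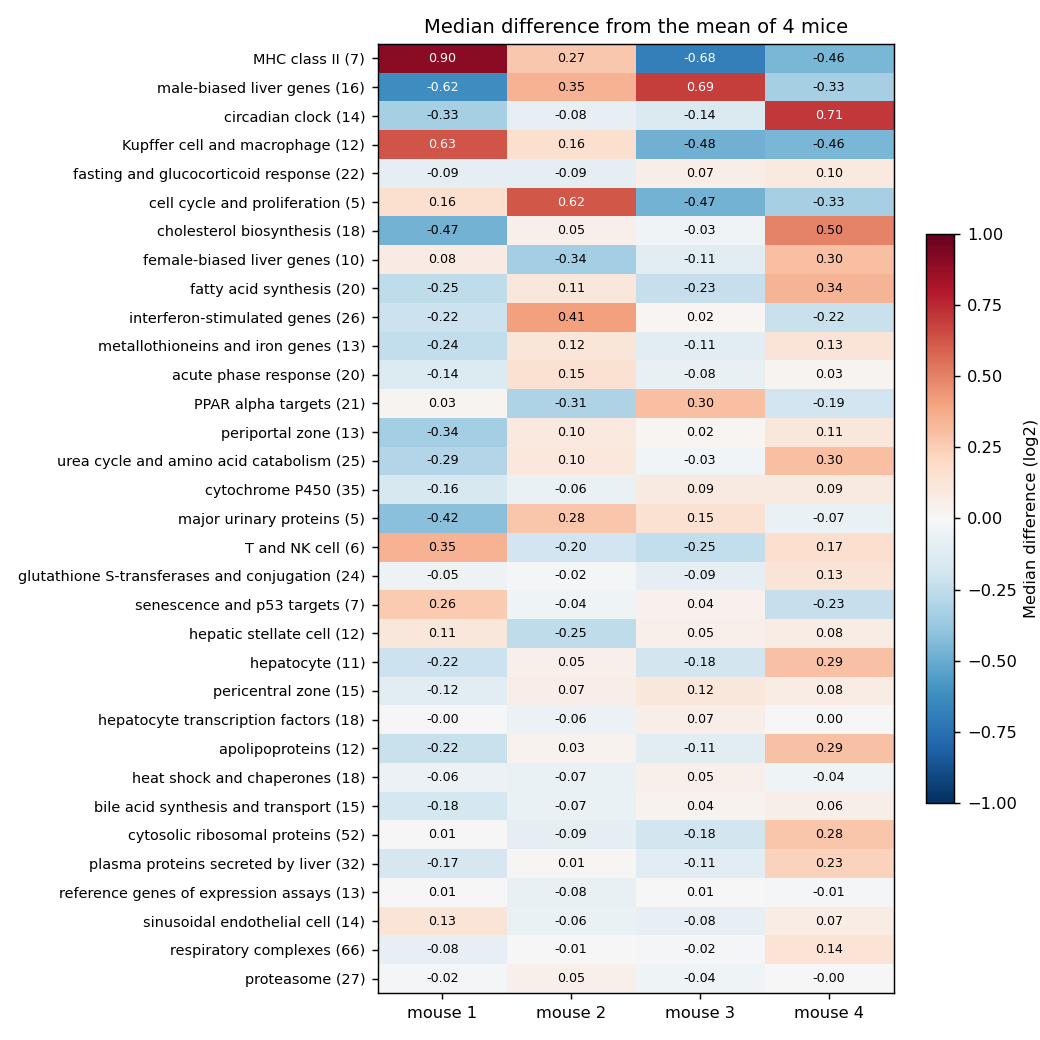
Median difference of each gene group from the mean of the 4 SD mice (colour and printed value, log2 of scaled signal), with groups of at least 5 detected genes in order of their median SD and the number of detected genes in brackets. MHC class II and Kupffer genes are high in mouse 1 (0.90 and 0.63), male-biased genes in mouse 3 (0.69) and clock genes in mouse 4 (0.71), while the proteasome, respiratory and endothelial groups at the bottom stay near 0.

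Proteasome and respiratory complex genes had median SDs below that of all detected genes (0.19). Proteasome genes had a median SD of 0.10, and 3 of 27 detected were called (0 with median centring, 0 unadjusted). Respiratory complex genes had a median SD of 0.17 with 18 of 66 called (0 with median centring, 0 unadjusted). Over all 7485 detected genes 2746 were called (359 with median centring). Cytosolic ribosomal protein genes had a median SD of 0.21, and mouse 4 was highest for 47 of 52, but for 24 of 52 after quantile normalization, when mouse 1 was highest for 23. Genes used as references in expression assays had a median SD of 0.20. Of these, 6 of 13 were called (0 with median centring, 0 unadjusted), against 2746 of all 7485 detected genes.

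The 10 genes of lowest SD were Tmem192, Lrrc40, Stoml2, Mrpl57, Pard6a, Zfp595, Dnaaf2, Mrvi1, Dennd6a and Mrpl46, with SDs of 0.01 to 0.02 on the log2 scale. These values lie below the median SD of 0.09 between repeat arrays, so they are at the limit of what the arrays resolve. Of the 10, 7 lay in the dimmest of 4 equal bins of detected level, where signals are near background. Mrpl46, a mitochondrial ribosomal protein, was in the brightest bin, with scaled signals of 10.57, 10.57, 10.60 and 10.57. In that bin the other genes of lowest SD included Nme2, a nucleoside diphosphate kinase, and Mmadhc, which acts in cobalamin metabolism. Low SDs depended on the scaling for some genes. Nme2 had an SD of 0.02, but 0.14 with quantile normalization and 0.09 with median centring. In the same order Tmem192 had 0.01, 0.06 and 0.02, Mrpl46 had 0.02, 0.02 and 0.05, and Mmadhc had 0.02, 0.02 and 0.06.

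Genes at the edge of detection added few large differences. Of the 2364 genes with a probe detected on some arrays only, 18 had a range over 1 log2 unit and 2 a range over 2. Those 2 were Saa2, given above, and Cyp2b13, a female-biased P450, with signals of 748, 166, 169 and 336, again higher in mice 1 and 4. Krt26, a keratin of hair, was detected on only 1 of the repeat arrays of mouse 1 and on no other array. Clec10a, a macrophage lectin, had signals of 310, 351, 176 and 147, high in mice 1 and 2, and Uhrf1, which maintains DNA methylation at replication, had 321, 350, 209 and 148.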

How the data were processed

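Liver RNA of 4 SD mice was hybridised to 5 Illumina BeadArrays, with mouse 1 on 2 arrays. The authors deposited the intensity of each probe without normalization, the detection p-value beside it, and a matrix of Z scores that matches log2 signals standardised array by array (largest difference 9.73e-05). The submitters' processing notes name GenomeStudio 2011.1. Genes were named through the platform annotation (23978 probes with 1 symbol, 0 with several, 1719 with none), and the brightest detected probe stood for its gene.

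As in the study's methods, log2 signals were standardised array by array. They were then multiplied by the mean SD of the 5 arrays and shifted by their mean. A probe was detected at a detection p-value under 0.05 on all 5 arrays. Mice were compared with limma 3.58.1 (R 4.3.3; lmFit with mouse as factor, eBayes with trend, moderated F), adjusted by Benjamini-Hochberg over 10605 probes. Only the repeated pair leaves a residual, so p-values measure a technical spread. The steps were tested on simulated data. The number of arrays limits the precision, and signals compress near background and near the top of the scale.

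The genes named were the 20 brightest, the 20 of highest and 10 of lowest SD, the lowest SD in each of 4 bins of level, the widest range among partly detected genes, and in each of 47 lists up to 4 bright, variable or background members, with marker genes. Further list members, and Il1b and Cd207, were chosen after their values were seen. The members and lists were chosen with earlier results of these data known. Alternatives were quantile normalization, median centring, neqc (offset 16), the deposited Z scores, a detection limit of 0.01, no filter, either array of mouse 1 alone, no intensity trend, an adjusted p under 0.01 and leaving out each mouse. Values of gene groups under other scalings and without single mice were chosen after seeing the data. Metformin-fed mice were not analysed here.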

Additional observations from a re-analysis of the deposited data

Results flagged for a closer look

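Of 50 named genes, Mrpl46 had 1 mouse apart from the others: mouse 3 was highest, and its gap to the nearest mouse was 0.899 of the whole range, past the 95% limit of Dixon's test for 4 samples. Chance gives such a gap in about 1 of 20 groups, and the SD of Mrpl46 was 0.02 on the log2 scale.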

How the results depend on the processing

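The number of probes that differed between mice depended most on the scaling: 3767 became 495 with median centring, 2150 with quantile normalization and 2307 with neqc, and 2583 to 3674 when mouse 2, 3 or 4 was left out. Without a filter on dim probes the median SD between mice was 0.0948 in place of 0.18, since 25697 probes were then taken, and leaving out a mouse gave 0.16 to 0.19. Of the 50 most variable genes, 32 remained with neqc, 43 at a detection limit of 0.01 and 30 to 41 when a mouse was left out, fewest without mouse 3. Of the 50 brightest, 47 to 48 remained. Probes detected on all arrays numbered 10690 to 10944 and probes detected on no array 11503 to 12251 without a mouse, against 10605 and 11400. The SD of the 20 most variable genes was tested or recomputed 257 times, and every test kept its call, while without mouse 1, where no test was possible, 5 SDs (Cyp4a12b, Upp2, H2-M2, Cxcl13 and Hsd17b6) were lower by over 1.5 times. The same held with the call kept for Dbp (1.02), Rgs16 (1.47) and Chrna4 (0.76) without mouse 4, Cyp4a31 (0.59) without mouse 3 and Cyp4a14 (0.68) without mouse 2, and the SD of Elovl3 was 1.81 with neqc. No paired analysis was possible because only 1 group of mice was used.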
